A study of Mus musculus with 12 samples.

Results

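The 34 genes described here encode proteins of homologous recombination, the Fanconi anemia pathway, the DNA damage checkpoint and mismatch repair. They were taken by gene name from an RNA-sequencing (RNA-seq) table of 53465 genes measured in LSKs, the Lin- Sca-1+ c-Kit+ cells of mouse bone marrow (BM) that contain the hematopoietic stem cells (HSCs). All 34 were found, had counts in every one of 12 libraries and passed the filter on low counts in every comparison. The libraries formed 4 groups of 3, which were untreated Tespa1+/+ mice, untreated Tespa1-/- mice, and mice of each genotype at day 9 after an injection of 5-fluorouracil (5-FU), a drug that blocks thymidylate synthesis and kills cycling marrow cells. The Tespa1-/- mice carry the B6.129S-Tespa1tm1Smoc knockout allele and were backcrossed to C57BL/6, the wild type animals were littermates according to the labels, and all were young adult males. Tespa1 encodes a signaling adaptor first studied in thymocytes. Whether a library came from 1 mouse or from pooled mice is not given in the sources used here, so p-values measure the spread between libraries, which may be technical.

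In dividing cells, a double-strand break or a stalled replication fork can be repaired from the sister chromatid. The Mre11a-Rad50-Nbn complex and its partner Rbbp8 trim the DNA ends, the Brca1-Bard1 and Palb2-Brca2 proteins load the recombinase onto the exposed strand, and motor proteins such as Rad54l drive the search for matching sequence. The Fanconi core complex acts where the strands of DNA are crosslinked. It attaches ubiquitin to the Fancd2-Fanci pair, which then recruits nucleases. The kinases Atm, Atr, Chek1 and Chek2 halt the cell cycle meanwhile, and Msh6 helps to recognize mismatched bases. Inherited loss of Fanconi genes causes marrow failure, which is why the pathway has been followed closely in HSCs, and many of these genes are transcribed mainly in S and G2 phase.

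Each library held 22118154 to 28275079 counts (median 23401715), and the 34 genes had between 35 and 5370 counts in a library. Tespa1 was lower in Tespa1-/- than in Tespa1+/+ LSKs but not absent, at a mean of 34.8 against 46.5 CPM (counts divided by the library size after TMM scaling) without treatment and 19.3 against 53.2 CPM after 5-FU. Its counts cover the whole gene, so reads from any part that was not deleted are included, and the untreated difference passed the test in only 1 of 6 fits that left out a library. The libraries carried LSK transcripts such as Kit in every group. However, 7 of 10 LSK and stem cell markers were lower in Tespa1-/- LSKs after 5-FU, with a median log2 fold change of -0.68 over the list and summed levels of 898 to 976 against 1474 to 1534 CPM. Without treatment 3 of the 10 were lower. After 5-FU 11 of 12 late neutrophil markers and 10 of 10 erythroid markers were higher. So were 2 of 4 T cell markers tested, 2 of 7 B cell markers and 1 of 5 megakaryocyte markers. The summed neutrophil markers were at 1086 to 1090 CPM in the Tespa1-/- libraries after 5-FU and at 9.14 to 13.3 CPM in the Tespa1+/+ libraries, in which 3 of the 12 were at 0 in every library. The summed erythroid markers were at 479 to 487 against 43.1 to 56.5 CPM. These lists move with the genotype after 5-FU and their part in the values below was not tested. In bulk RNA, fewer cells of a type and less RNA per cell cannot be told apart.

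The 34 genes were first ordered by their level, using FPKM, the deposited unit that divides the fragments of a gene by its length and by the library size. Msh6, the partner of the mismatch sensor, was the highest at a mean of 42.8 FPKM over the 12 libraries and ran from 36.5 to 47.0 FPKM, above every value of any other gene of the set. The end-processing genes came next, with Rad50, the coiled-coil subunit of the nuclease complex, at 24.0 FPKM and Rbbp8 at 17.9 FPKM. Atm, the kinase that responds to double-strand breaks, had a mean of 13.1 FPKM, and Nbn, the subunit that recruits it, 12.04 FPKM. At the low end stood Fanconi core genes, with Fancb at 1.11, Fance at 1.10 and Fancc at 0.955 FPKM. Rad51c, a recombinase paralog, was the lowest at 0.642 FPKM, with a range of 0.460 to 0.831 FPKM. From Rad50 downward the range of each gene over the 12 libraries overlapped that of the next gene. Compared within libraries, the upper gene was higher in all 12 for 3 of the 33 neighbouring pairs, Msh6 over Rad50, Rad50 over Rbbp8 and Fancc over Rad51c. For the other pairs it was higher in 5 to 11 libraries, so those orders were not the same in every library. The order depends on the length used. The lengths implied by the deposited FPKM were 0.707 to 4.37 times the longest annotated transcript, and with that transcript as the length 4 of the 5 highest genes stayed among the 5 highest, Brca1 taking the place of Rbbp8. At the low end Fancc went from rank 33 to 26 and Fance from 32 to 28, while Rad51c stayed the lowest.

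**Figure D1:**
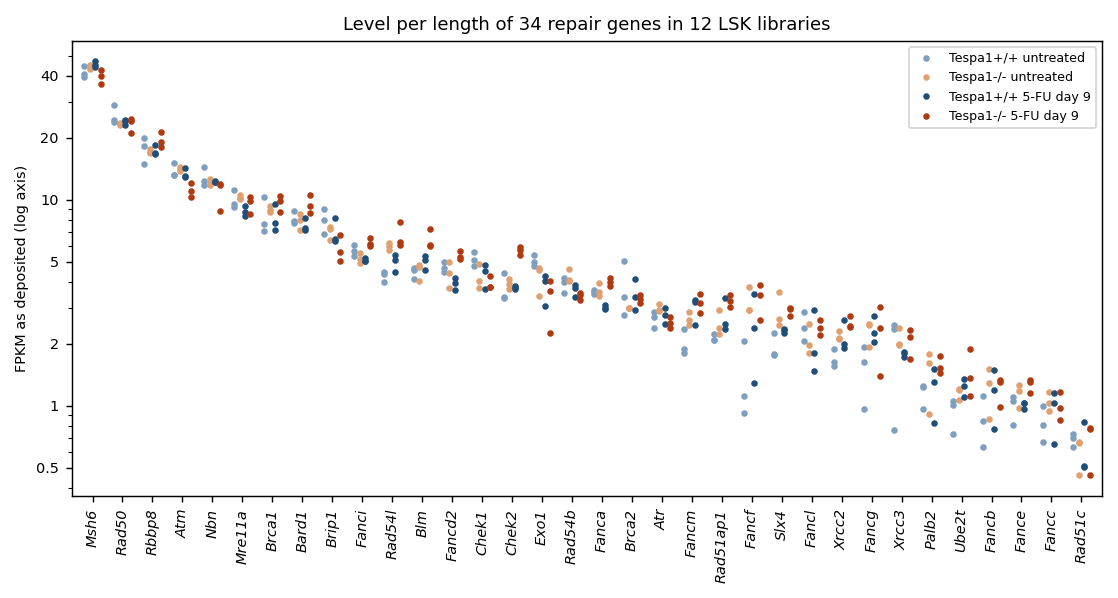
Deposited FPKM (log axis) of the 34 repair genes in each of the 12 libraries, ordered by mean, with colors for the 4 groups. The values fall from Msh6 at a mean of 42.8 to Rad51c at 0.642 FPKM, and from Rad50 on the ranges of neighbouring genes over the 12 libraries overlap.

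The first question was how loss of Tespa1 changed these genes under 5-FU stress. In Tespa1-/- LSKs at day 9, 6 of the 34 genes were higher than in Tespa1+/+ LSKs at an adjusted p below 0.05 (quasi-likelihood test of edgeR, adjusted by Benjamini-Hochberg over all genes tested), namely Chek2, Fancd2, Rad54l, Fanca, Blm and Slx4. That is 17.6%, against 7.34% of the 17239 genes tested that were called higher. The count fell in every fit without a library, which has fewer samples. It was 2 without the second Tespa1+/+ or the first Tespa1-/- library and 3 without the second or the third Tespa1-/- library. Without the first or the third Tespa1+/+ library it was 4. The members' median log2 fold change ran from 0.17 to 0.23 in these fits. None of the 34 was called lower, against 5.78% of all genes tested (over all genes 1265 were higher and 996 lower, and 1118 and 1145 without TMM scaling), although 2 were lower at an unadjusted p below 0.05 in edgeR and DESeq2 called 1, Atm. The changes were small, with fold changes of 1.28 to 1.53 among the 6. In total 23 of the 34 had a log2 fold change above 0, and the median was 0.21, beside -0.01 over all genes tested. These genes are measured more precisely than most, with a median standard error (SE) of 0.13 on the log2 scale against 0.21 over all genes. Their summed level was 1593 to 1620 CPM in the 3 Tespa1-/- libraries and 1505 to 1517 CPM in the 3 Tespa1+/+ libraries.

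**Figure D2:**
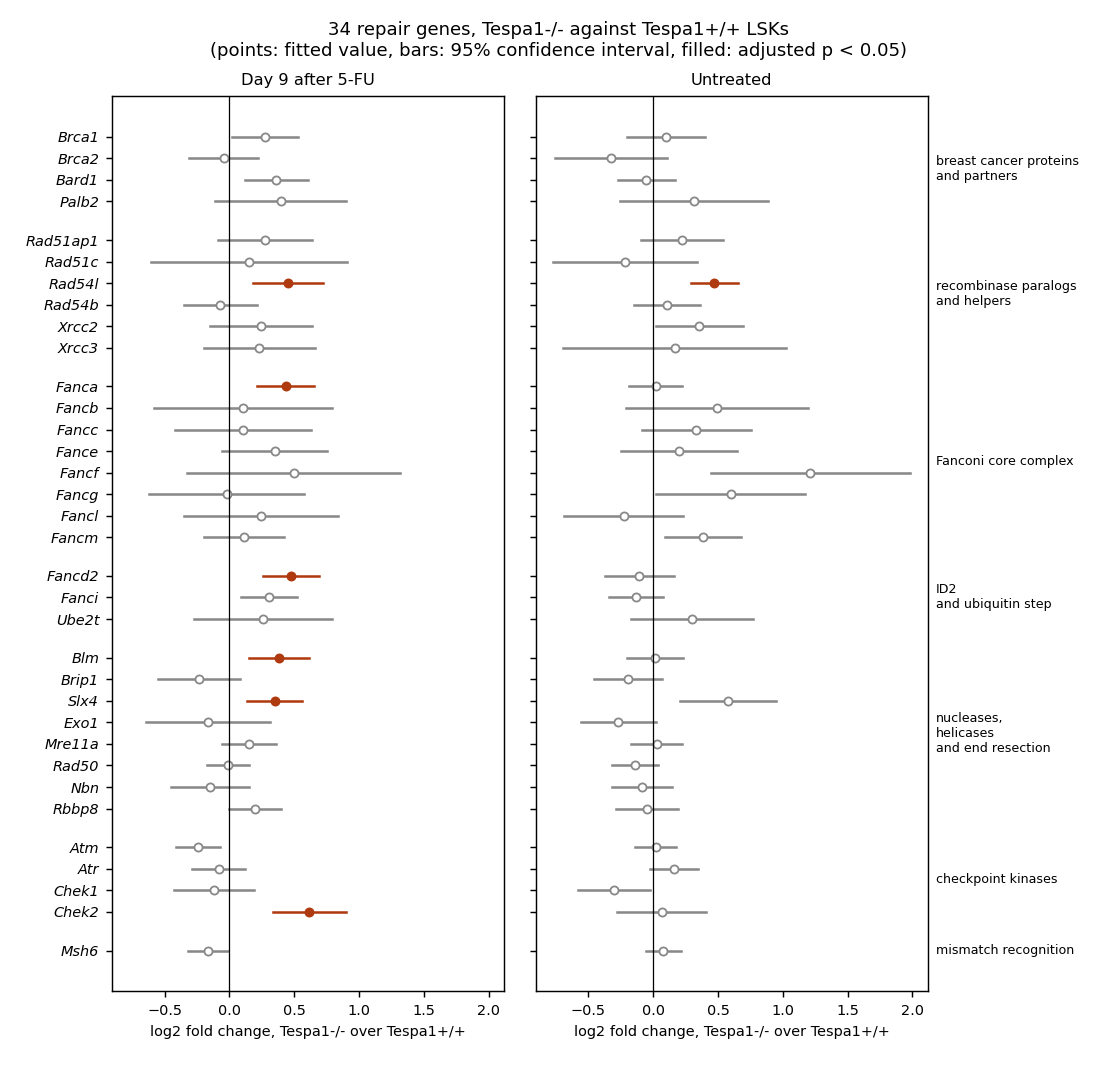
Fitted log2 fold change of Tespa1-/- over Tespa1+/+ LSKs for the 34 genes, grouped by role, at day 9 after 5-FU (left) and untreated (right), with 3 libraries a group. Points are fitted values, bars are 95% confidence intervals and filled points have an edgeR adjusted p below 0.05, which 6 genes reached after 5-FU and 1, Rad54l, reached untreated.

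Among the checkpoint kinases, Chek2 rose and the other 3 were not called. Chek2 is the kinase that passes the signal of Atm on to p53 and the Cdc25 phosphatases. It was at 25.6, 26.5 and 24.1 CPM in the Tespa1-/- libraries after 5-FU, and at 16.3, 16.6 and 16.6 CPM in the Tespa1+/+ libraries. The groups did not overlap, and the 3 wild type values were almost the same. With 3 libraries a group, even full separation gives an exact permutation p of 0.1 at the smallest, here and for the genes below. The share of all genes that separate in this way was not computed. The fold change of Chek2 was 1.53, a log2 fold change of 0.62 ± 0.12 (SE) with a 95% confidence interval of 0.34 to 0.90 (edgeR adjusted p = 0.0106). Chek2 was also the only member above a fold change of 1.5 in this comparison. Its call held when any of the 6 libraries was left out, with a largest adjusted p of 0.0473, and in 7 of 7 other alternatives. The upstream kinase Atm had lower values in each Tespa1-/- library, 127, 120 and 139 CPM against 149, 161 and 145 CPM, with a log2 fold change of -0.24 (edgeR adjusted p = 0.0652). It was called lower in 4 of 7 other alternatives and in no fit without a library. Atr, the kinase of stalled forks, was at -0.08 and its effector Chek1 at -0.12 on the log2 scale.

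Of the 3 genes of the ubiquitin step of the Fanconi pathway, 1 rose. Fancd2, which becomes ubiquitinated together with Fanci, was at 54.3, 50.9 and 49.6 CPM in the Tespa1-/- libraries and at 34.7, 39.2 and 37.3 CPM in the Tespa1+/+ libraries after 5-FU. All Tespa1-/- values lay above all Tespa1+/+ values. The log2 fold change was 0.47 ± 0.10 (SE; 95% confidence interval 0.26 to 0.69; edgeR adjusted p = 0.0111), and the call held in 6 of 6 fits without a library and in 7 of 7 other alternatives. Its partner Fanci was at 41.4, 45.5 and 42.0 CPM against 34.4, 35.5 and 34.1 CPM, again without overlap. Fanci had a log2 fold change of 0.31 and missed the threshold (edgeR adjusted p = 0.0699), and it shares 4034 bases with Polg on the opposite strand, which had 15423 counts in all libraries together beside 11227 for Fanci. Ube2t, the ubiquitin-conjugating enzyme of the step, was at 0.26 with a wide interval of -0.27 to 0.79.

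Of 8 core complex genes, 1 rose. Fanca, the subunit most often mutated in Fanconi anemia, was at 43.8, 45.8 and 41.7 CPM in Tespa1-/- LSKs and at 32.2, 31.7 and 33.1 CPM in Tespa1+/+ LSKs after 5-FU. No library of one genotype reached the range of the other. Its log2 fold change was 0.43 ± 0.10 (SE; edgeR adjusted p = 0.0174). The call held in 3 of 6 fits without a library and in 6 of 7 other alternatives, with a largest adjusted p of 0.0698 among the former. Reads may be shared with Zfp276 and Gm20388, which lie over Fanca on the opposite strand, because the use of strand in counting is not given. The other 7 core genes had values from -0.02 for Fancg to 0.50 for Fancf, with SEs of 0.14 to 0.37. Fance, the subunit that binds Fancd2, was at 0.35, Fancl, the ubiquitin ligase itself, at 0.25, Fancm, the translocase that docks the complex on DNA, at 0.12, Fancc at 0.11 and Fancb at 0.10.

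Within recombination, the motor protein gene Rad54l rose. It was at 61.2, 59.4 and 75.6 CPM in the Tespa1-/- libraries and at 51.8, 42.7 and 48.5 CPM in the Tespa1+/+ libraries after 5-FU. One Tespa1-/- library stood above the other two, and all 3 exceeded the wild type values. Rad54l had a log2 fold change of 0.45 ± 0.12 (SE; edgeR adjusted p = 0.0363). It passed the test in 2 of 6 fits without a library, where the largest adjusted p was 0.118, and in 7 of 7 other alternatives. Lrrc41 overlaps Rad54l by 2780 bases on the opposite strand and had 8130 counts in all libraries together beside 15543 for Rad54l. Its paralog Rad54b was at -0.07. The recombinase paralogs Xrcc2, Xrcc3 and Rad51c were at 0.24, 0.23 and 0.15, and the recombinase cofactor Rad51ap1 was at 0.28, none of them called.

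The breast cancer proteins and their partners gave no call in this fit. Bard1, which forms a ubiquitin ligase with Brca1, was at 0.36 (edgeR adjusted p = 0.056) with no overlap between the genotypes, and it was called in 2 of 7 other alternatives. Brca1 itself was at 0.28, with a 95% confidence interval of 0.02 to 0.53. Palb2, which links Brca1 to Brca2, was at 0.40 with an interval of -0.11 to 0.90, and Brca2, the recombinase loader, was at -0.04.

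Of the 8 nucleases, helicases and end resection genes, 2 rose. Blm, the RecQ helicase that undoes recombination intermediates, was at 68.8, 82.2 and 68.1 CPM in Tespa1-/- LSKs after 5-FU and at 60.0, 50.8 and 56.9 CPM in Tespa1+/+ LSKs, with a log2 fold change of 0.38 ± 0.10 (SE; edgeR adjusted p = 0.0402). Slx4, the scaffold that holds structure-specific nucleases, was at 48.0, 48.3 and 44.1 CPM against 37.0, 37.2 and 35.5 CPM, with a log2 fold change of 0.35 ± 0.09 (SE; edgeR adjusted p = 0.0381). The genotypes did not overlap for either gene. Both calls lay close to the threshold, and neither held in any of the 6 fits without a library, where the largest adjusted p was 0.134 for Blm and 0.118 for Slx4, while Blm was called in 5 and Slx4 in 3 of 7 other alternatives. Ndufab1-ps lies over Blm on the opposite strand. The end resection genes were not called, with Rad50 at -0.01, Nbn at -0.15, Mre11a at 0.15 and Rbbp8 at 0.20. The helicase Brip1 was at -0.24 and the exonuclease Exo1 at -0.17. Msh6, the only mismatch recognition gene of the set, was lower in all 3 Tespa1-/- libraries, at -0.17, without passing the adjusted test (edgeR adjusted p = 0.155).

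**Figure D3:**
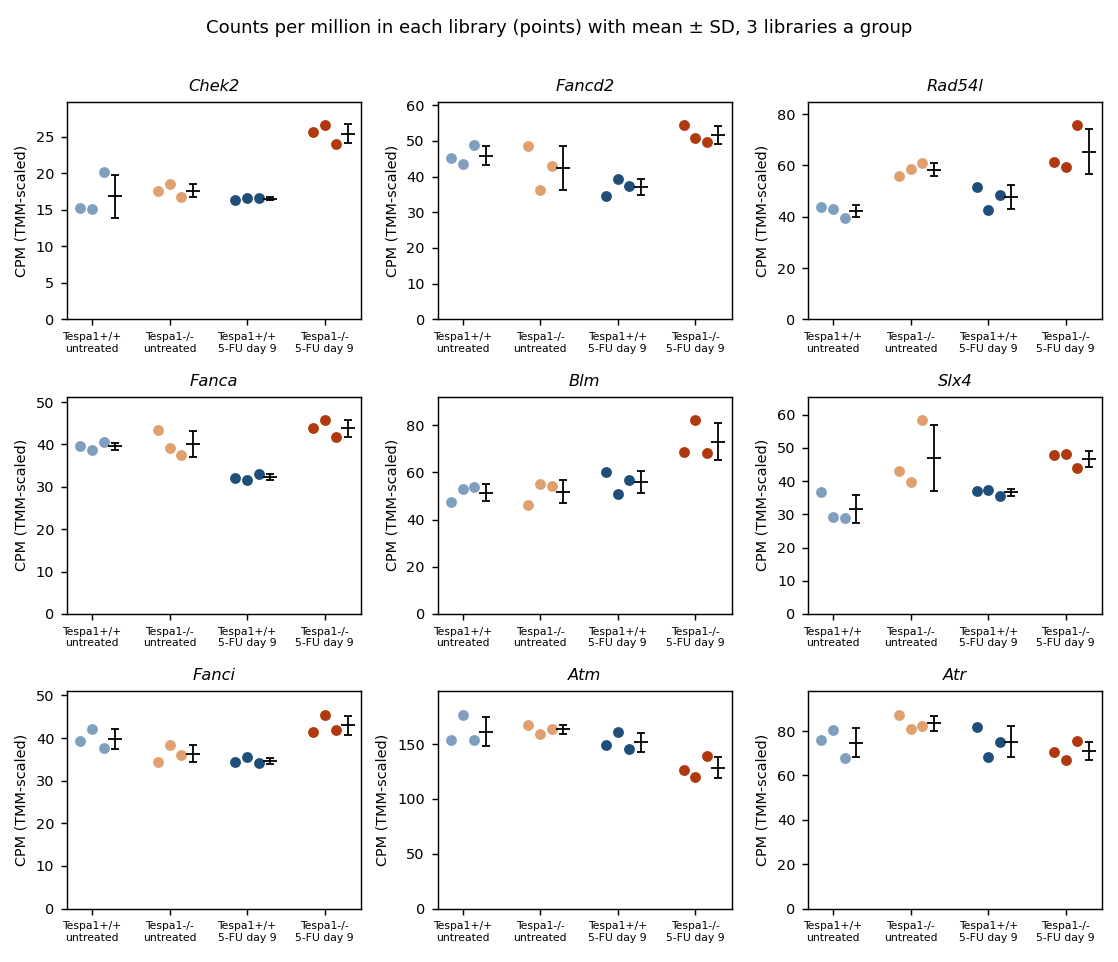
CPM of 9 members in each library (points) by group, with the mean and SD of 3 libraries beside them and axes from 0. Chek2, Fancd2, Rad54l, Fanca, Blm, Slx4 and Fanci sit higher in all 3 Tespa1-/- libraries than in all 3 Tespa1+/+ libraries after 5-FU, and Atm sits lower.

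Because many repair genes carry binding words for the E2F factors that drive S-phase transcription, the promoters of the members were read from RefSeq (GRCm38.p6), as windows from 250 bases before to 50 bases after each gene's start. Windows were found for 27 of the 34 genes. An E2F-type word, taken as TTTCCCGC, TTTGGCGC, TTTCGCGC or TTTGCCGC on either strand, was present for 6 of the 27, or 22.2%, against 2.6% of 27025 genes with a window. The 6 were Chek2, Bard1, Msh6, Rad51c, Brca2 and Fancg, so that Chek2 was the only one of them among the genes called after 5-FU, and Fancd2 had no window to search. The word CCAAT on either strand was present for 19 of the 27, or 70.4%, against 41.1% of all genes, and the words TTTGAA or TTCGAA for 2, or 7.41%, against 21.7%. A match is a description of the letters and not evidence of binding. The 4 windows shown are those of the genes with an E2F-type word that differed most between the genotypes after 5-FU, with that word or its reverse complement in capitals, read 5′ to 3′ on the strand of the gene. For Chek2 and Bard1 the 250 bases before the start are given, and for Msh6 and Rad51c 30 bases around the word, which lies at the start of the gene.
Chek2, chr5:110839733-110839982, + strand: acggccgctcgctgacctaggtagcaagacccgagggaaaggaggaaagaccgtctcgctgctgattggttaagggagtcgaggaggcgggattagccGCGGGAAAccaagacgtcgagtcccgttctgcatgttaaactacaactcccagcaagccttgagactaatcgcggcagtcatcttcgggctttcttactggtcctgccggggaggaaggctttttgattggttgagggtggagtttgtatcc
Bard1, chr1:71102973-71103222, - strand: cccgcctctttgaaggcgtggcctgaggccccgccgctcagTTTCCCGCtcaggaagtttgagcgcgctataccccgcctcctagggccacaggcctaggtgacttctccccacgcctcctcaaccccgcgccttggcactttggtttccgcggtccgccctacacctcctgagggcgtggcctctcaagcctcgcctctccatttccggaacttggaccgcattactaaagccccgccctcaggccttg
Msh6, chr17:87975054-87975083, + strand: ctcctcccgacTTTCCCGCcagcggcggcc
Rad51c, chr11:87404941-87404970, - strand: cccccgcgaggGCGGGAAAagcaaggggtc
Relative to the start of the gene, the word began at position -152 in Chek2, -209 in Bard1, -5 in Rad51c and 16 in Msh6. The log2 fold changes of these 4 genes after 5-FU by genotype were 0.62, 0.36, -0.17 and 0.15 in the order of the sequences, and Chek2 alone was called.

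The genes were then set beside their partners and beside cell cycle genes. Of 64 other genes of the same pathways, 9 were higher and 2 lower in Tespa1-/- LSKs after 5-FU, with a median log2 fold change of 0.06. In recombination 4 of 24 rose and 1 fell, and the largest changes were those of Eme1, a nuclease subunit, at 0.76 and Polq, the polymerase of end joining at microhomologies, at 0.71. Among 17 Fanconi and translesion partners 1 rose, the polymerase Rev1 at 0.47. In the checkpoint list 2 of 17 rose and 1 fell, with the histone H2afx at 0.64 and the end-joining factor Trp53bp1 at -0.57. Of 6 mismatch repair partners 2 rose, the DNA ligase Lig1 at 0.33 and the polymerase subunit Pold1 at 0.27. In the G2/M list 37 of 52 genes were higher and none lower, with a median of 0.51. The S-phase list had 9 of 35 higher and 1 lower with a median of 0.12, led by Rrm2, a ribonucleotide reductase subunit, at 0.79. Of 14 E2F family and repressor genes 3 rose, led by E2f2 at 0.89. Whether the difference in G2/M genes accounts for that in the repair genes was not tested.

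**Figure D4:**
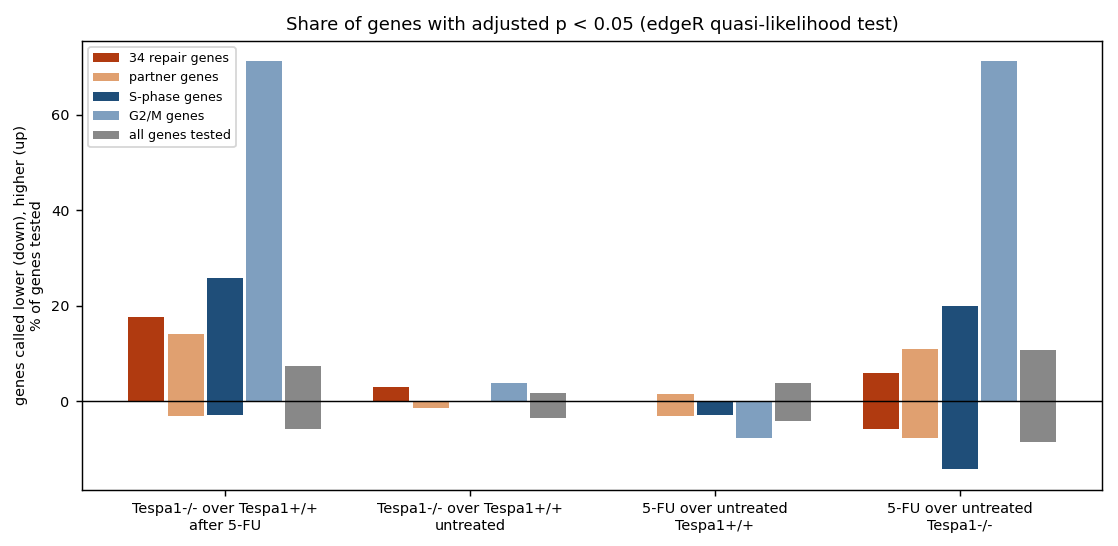
Share of genes tested that were called higher (bars up) or lower (bars down) at an edgeR adjusted p below 0.05, for the 34 repair genes, 64 partner genes, 35 S-phase genes, 52 G2/M genes and all genes, in the 4 comparisons. After 5-FU 17.6% of the repair genes were higher in Tespa1-/- LSKs against 7.34% of all genes, a count of 6 that was 2 to 4 with 1 library left out, and in the other 3 comparisons no bar of the repair genes exceeds 5.88%.

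Without treatment 1 gene, Rad54l, was higher in Tespa1-/- LSKs, which is 2.94% of the 34 against 1.64% of the 17055 genes tested. No member was called lower, against 3.59% of all genes, 1 was lower at an unadjusted p below 0.05 in edgeR and DESeq2 called 0. Rad54l was at 55.8, 58.5 and 60.8 CPM in the Tespa1-/- libraries and at 43.7, 43.2 and 39.4 CPM in the Tespa1+/+ libraries, without overlap. Its log2 fold change of 0.47 ± 0.08 (SE; 95% confidence interval 0.29 to 0.66; edgeR adjusted p = 0.0132) was close to the 0.45 after 5-FU. The call was lost when any of the 3 Tespa1-/- libraries was left out, with edgeR adjusted p-values of 0.0524, 0.0808 and 0.0803. The largest estimate of the set was that of Fancf, a core complex adaptor, at 1.21 with an interval of 0.45 to 1.98 (edgeR adjusted p = 0.0872). Slx4 was at 0.57 (edgeR adjusted p = 0.0924). Of the genes called after 5-FU, Chek2 was at 0.06, Fanca at 0.02, Blm at 0.01 and Fancd2 at -0.11 in untreated LSKs. The members' median was 0.07, beside 0.01 over all genes, and 22 of 34 values lay above 0. In this comparison 3 of 6 B cell markers tested and 3 of 10 LSK markers were lower, and 1 of 8 erythroid and 1 of 4 megakaryocyte markers and 2 of 52 G2/M genes were higher, and their part in the members' values was not tested.

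The response to 5-FU was then compared within each genotype. In Tespa1+/+ LSKs no member was called at day 9 against untreated, in either direction, where 3.77% of the 17002 genes tested were called higher and 4.18% lower by edgeR. At an unadjusted p below 0.05 there were 1 higher and 4 lower, and DESeq2 called 1 higher, Fancm, and 1 lower, Exo1. Fancm was at 0.51 with a 95% confidence interval of 0.16 to 0.86 and Exo1 at -0.46 with an interval of -0.77 to -0.16. Fancd2 and Fanca were lower in every treated library than in every untreated one, at -0.31 and -0.29 (edgeR adjusted p = 0.114 and 0.123). So were Fanci at -0.195, Exo1, Mre11a, Rad50 and Chek1. Fancm, Fancg, Ube2t and Rad51ap1 were higher in every treated library, with Fancg at 0.59, Ube2t at 0.36 and Rad51ap1 at 0.31. The share of all genes that separate in either direction was not computed. The median of the 8 core complex genes was 0.26. The members' median was -0.08, beside 0.01 over all genes. It was 0.05 without the second untreated Tespa1+/+ library, so its sign rests on that library. Over all genes the calls split into 641 higher and 711 lower, and into 765 and 549 without TMM scaling. In this comparison 6 of 6 B cell markers tested were higher, at a summed 60.7 to 70.2 CPM untreated and 264.8 to 269.6 CPM treated, as were 3 of 4 megakaryocyte, 3 of 7 erythroid and 2 of 6 late neutrophil markers, and 2 of 10 LSK markers were higher and 2 lower. Their part in the members' values was not tested.

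In Tespa1-/- LSKs 2 members rose and 2 fell at day 9 after 5-FU, which is 5.88% in each direction and below the 10.7% higher and 8.64% lower among the 17228 genes tested. The risers were Chek2 and Blm. Chek2 went from 17.5, 18.5 and 16.7 CPM untreated to 25.6, 26.5 and 24.1 CPM, a log2 fold change of 0.52 ± 0.11 (SE; edgeR adjusted p = 0.0104). Blm went from 46.3, 54.9 and 54.2 CPM to 68.8, 82.2 and 68.1 CPM, a log2 fold change of 0.49 ± 0.10 (SE; edgeR adjusted p = 0.00955). For both genes every treated library exceeded every untreated one, and both calls held in all 6 fits without a library and in 7 of 7 other alternatives. The genes that fell were the apical kinases Atm and Atr. Atm fell from 167, 159 and 164 CPM to 127, 120 and 139 CPM, a log2 fold change of -0.36 ± 0.06 (SE; edgeR adjusted p = 0.00519) that held under the same alternatives. Atr fell from 87.4, 80.7 and 82.3 CPM to 70.6, 67.1 and 75.4 CPM, a log2 fold change of -0.24 ± 0.07 (SE; edgeR adjusted p = 0.0391). The groups did not overlap for either kinase. The call of Atr held in 1 of 6 fits without a library and in 3 of 7 other alternatives. Atr is overlapped on the opposite strand by Gm16794 and 1700065D16Rik, which had 129 and 971 counts in all libraries together beside 22166 for Atr. In the same comparison 37 of 52 G2/M genes rose, and 11 of 12 late neutrophil markers (7.03 to 8.35 CPM summed untreated, 1086 to 1090 CPM treated), 10 of 10 erythroid markers (42.2 to 52.4 and 479 to 487 CPM), 6 of 7 B cell markers (38.5 to 43.7 and 288 to 316 CPM) and 4 of 4 megakaryocyte markers were higher. Of the 10 LSK markers 3 were higher and 3 lower. The part of these lists in the members' values was not tested. In this comparison the members' median was 0.10, beside -0.01 over all genes.

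**Figure D5:**
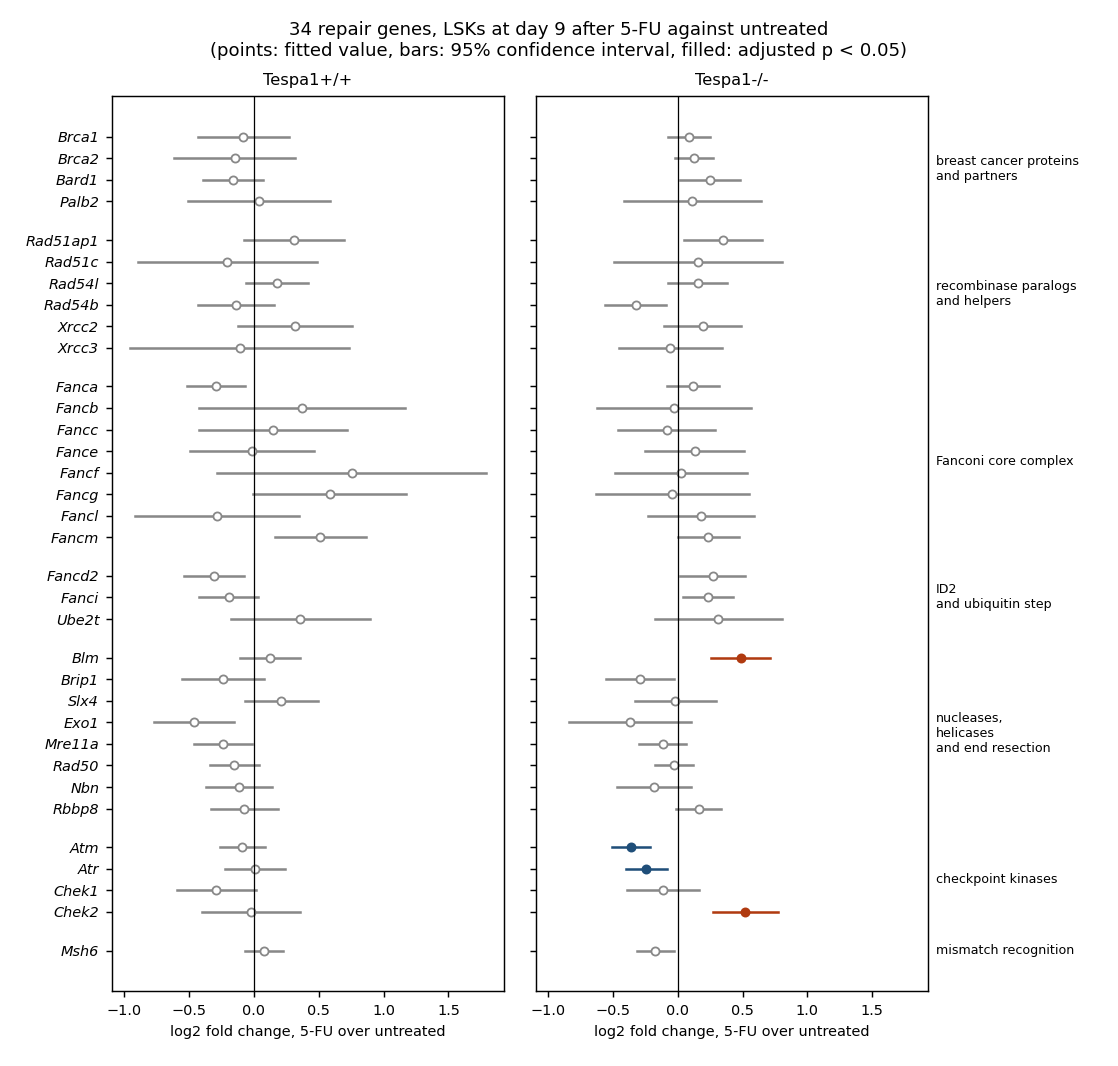
Fitted log2 fold change of LSKs at day 9 after 5-FU over untreated LSKs for the 34 genes, in Tespa1+/+ (left) and Tespa1-/- mice (right), with 3 libraries a group. Points are fitted values, bars are 95% confidence intervals and filled points have an edgeR adjusted p below 0.05, which no gene reached in Tespa1+/+ LSKs and Chek2, Blm, Atm and Atr reached in Tespa1-/- LSKs.

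To ask whether the effect of Tespa1 loss itself differed between treated and untreated mice, the interaction was tested over all 12 libraries. Only Fancd2 passed, which is 2.94% of the 34 against 3.02% of the 18696 genes tested with a positive interaction, and none was called with a negative one against 1.99%, where edgeR had 2 at an unadjusted p below 0.05 and DESeq2 called 0. Fancd2 was at 45.2, 43.6 and 48.9 CPM in untreated Tespa1+/+ LSKs and at 48.4, 36.1 and 42.9 CPM in untreated Tespa1-/- LSKs, where the genotypes overlapped. After 5-FU the values given above did not overlap. The mean went from 45.9 to 37.1 CPM in Tespa1+/+ and from 42.5 to 51.6 CPM in Tespa1-/- LSKs. The interaction was 0.59 ± 0.15 on the log2 scale (SE; 95% confidence interval 0.26 to 0.91; edgeR adjusted p = 0.0399). It passed in 1 of 12 fits without a library, that without the first untreated Tespa1-/- library, and in 4 of 6 other alternatives. The next members were its partner Fanci at 0.44 (edgeR adjusted p = 0.0533) and Fanca at 0.42 (edgeR adjusted p = 0.0626). In untreated LSKs Fanci was at 39.3, 42.2 and 37.7 CPM in Tespa1+/+ and at 34.4, 38.4 and 36.1 CPM in Tespa1-/- libraries. Fanca was at 39.5, 38.7 and 40.5 CPM in untreated Tespa1+/+ and at 43.5, 39.2 and 37.6 CPM in untreated Tespa1-/- libraries. For Fanci and Fanca the genotypes overlapped before treatment and not after it, but neither interaction was called. Chek2 had an interaction of 0.56 and Rad54l one of -0.01, with a 95% confidence interval of -0.33 to 0.30, and neither was called. In the same test 26 of 52 G2/M and 4 of 35 S-phase genes, 6 of 10 erythroid, 5 of 12 late neutrophil and 3 of 7 B cell markers had a positive interaction and 3 of 10 LSK markers a negative one, and their part in the members' values was not tested.

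At the threshold of the study, a fold change above 1.5 with an unadjusted P below 0.05, Chek2 alone passed after 5-FU by genotype, where 11.7% of all genes did. The untreated genotypes gave 2 members, Fancf and Fancg, against 6.74% of all genes, and the response to 5-FU gave 0 in Tespa1+/+ against 9.88% and 0 in Tespa1-/- against 14.4%. The interaction gave 1, Fancd2, against 10.4%. With the same fold change and an edgeR adjusted p below 0.05, the members were Chek2 after 5-FU against 6.98% of all genes, 0 untreated against 2.51%, 0 in Tespa1+/+ against 4.43%, 0 in Tespa1-/- against 10.1%, and Fancd2 for the interaction against 3.21%.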

How the data were processed

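RNA-seq of LSKs in 12 libraries was used, 3 in each of 4 groups taken from the labels. The authors deposited, per gene and library, whole-number counts of reads without normalization and FPKM values, which follow from those counts with 1 length per gene. Libraries were poly-A selected, stranded and paired-end per the labels. The submitters' processing notes name CASAVA 1.8, HISAT2, StringTie, edgeR and build GRCm38, with no roles, and the use of strand in counting is not given in the sources used here. Totals of 22118154 to 28275079 counts set the precision.

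Counts were tested with edgeR 4.0.16 in R 4.3.3 (filterByExpr, TMM, quasi-likelihood test), each comparison on its 6 libraries and the interaction on all 12, with Benjamini-Hochberg adjustment over all genes tested and calls at an adjusted p below 0.05. The fits were tested on simulated data for the genotypes after 5-FU and for the interaction. They missed most simulated fold changes of the size called here. The share of unchanged genes among the calls was above the nominal rate after 5-FU and below it for the interaction. Far fewer genes were changed in the simulation than were called in the data, which makes the adjusted threshold stricter. These rates therefore cannot be carried over to the data. FPKM served only to compare levels between genes. Alternatives were DESeq2 1.42.0, other scalings and filters, all 12 libraries in 1 fit, a replicate block, each library left out, and 2 fold thresholds. The members and gene lists were chosen with earlier results of these data known. Values in every library are given for up to 4 called members with the largest rise and fall in each comparison and the 3 with the smallest interaction p, and also for Blm, Slx4 and Atm after 5-FU, added after their values were seen. From other lists at most 2 called genes with the largest change are named.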

Additional observations from a re-analysis of the deposited data

Results flagged for a closer look

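Fancd2 is listed because its effect of genotype differed between the treatments in a test of the difference itself, with an interaction of 0.588 on the log2 scale (edgeR adjusted p = 0.0399). It was 1 of the 34 members, or 2.94%, against 3.02% of all genes tested, and 26 of 52 G2/M genes also had a positive interaction. Its genotype effect was 0.47 after 5-FU and -0.11 untreated, and it was higher in all 3 Tespa1-/- libraries than in all 3 Tespa1+/+ libraries after 5-FU. The adjusted p ran from 0.0523 to 0.102 in the 11 fits without a library in which the call was lost. Groups of 3 libraries are too small for a check of single libraries that stand apart.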

How the results depend on the processing

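The members' median log2 fold changes after 5-FU by genotype (0.17 to 0.23), untreated (0.04 to 0.10), and after 5-FU in Tespa1-/- LSKs (0.06 to 0.12) stayed above 0 in every fit without a library, and that in Tespa1+/+ LSKs ran from -0.093 to 0.05. Fits without a library have fewer samples, and called 2 to 4 members higher and 0 lower after 5-FU by genotype, 0 to 2 higher and 0 lower untreated, 0 in Tespa1+/+, 2 higher and 1 to 2 lower in Tespa1-/-, and 0 to 1 for the interaction. Labels number the replicates, but over all genes same-numbered libraries did not deviate together (correlations of -0.065 to 0.048 over 18 pairs). Correlations over all genes cannot exclude shared handling that affects only some genes. With the replicate block the counts were 3 higher after 5-FU by genotype, 0 untreated, 1 lower in Tespa1-/- LSKs and 0 for the interaction. DESeq2 called 8 higher and 1 lower after 5-FU by genotype, 3 higher untreated, 1 higher and 1 lower in Tespa1+/+ LSKs, and 3 for the interaction. All 12 libraries in 1 fit gave 7 higher and 1 lower after 5-FU by genotype, 2 higher untreated, 1 higher and 1 lower in Tespa1+/+, and 1 lower in Tespa1-/-. Library totals without TMM gave 4 higher and 1 lower after 5-FU by genotype, 1 lower in Tespa1-/- and 0 for the interaction. The requirement of 10 counts in every library gave 6 higher and 1 lower after 5-FU by genotype. No filter gave 5 higher after 5-FU by genotype and 1 lower in Tespa1-/-. Both thresholds with a fold change above 1.5 gave 1 higher after 5-FU by genotype and 0 higher and 0 lower in Tespa1-/-, and the untreated genotypes gave 2 higher with the unadjusted P and 0 with the adjusted p. The cause of these changes was not tested, other than the fewer samples and the fold limit. For the 12 single-gene results chosen by the rule for named genes, which leave out Blm, Slx4, Atm and Fanci after 5-FU by genotype, no fold change reversed under these alternatives, and 34 values lost and 2 gained a call and 135 stayed on their side of the threshold.

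Over all genes, untreated calls by genotype were 280 higher and 612 lower, against 528 with DESeq2 for the higher, and 116 and 338 with the block. In Tespa1+/+ LSKs 641 rose and 711 fell after 5-FU, against 1003 higher with DESeq2 and 1030 and 1083 with 12 libraries, and without TMM the split turned to 765 and 549. The interaction had 564 positive and 372 negative calls, against 869 and 665 with DESeq2 and 428 and 420 without TMM. After 5-FU by genotype 1265 were higher and 996 lower, and 1118 and 1145 without TMM. The median SE of the Fanconi core genes was 0.25 after 5-FU by genotype, and the part of depth in it was not tested.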

Other observations

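The spread between libraries differed among the members. The median coefficient of variation over the 34 genes was 10.8% in untreated Tespa1+/+, 7.74% in untreated Tespa1-/-, 9.45% in treated Tespa1+/+ and 8.80% in treated Tespa1-/- LSKs. Xrcc3, a recombinase paralog, was at 13.1, 13.7 and 4.26 CPM in untreated Tespa1+/+ LSKs, and between 9.25 and 13.1 CPM in the 9 libraries of the other groups. It lies over Klc1 on the opposite strand, which had 19157 counts in all libraries together beside 3129 for Xrcc3. Brca2 was at 60.9, 111 and 74.6 CPM in untreated Tespa1+/+ LSKs and at 65.6, 65.4 and 65.6 CPM in untreated Tespa1-/- LSKs. Fancf was at 3.53, 1.91 and 1.58 CPM in untreated Tespa1+/+ and at 4.96, 4.97 and 6.46 CPM in untreated Tespa1-/- LSKs, and Gas2 overlaps it by 253 bases on the opposite strand. These genes were chosen after their values were seen.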
